A study of Mus musculus with 6 samples.

Results

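The genes described here are 39 genes of the cell cycle and of DNA replication, read in the right atria (RA) of mice. They were taken by symbol from a table of 54093 genes, 26706 of which were above 0 in at least 1 library, and each of the 39 symbols had 1 row. By the phase in which the product is best known to act, 7 were placed in G1 (Ccnd1, Ccnd2, Ccnd3, Cdk4, Ccne1, Cdk2 and E2f1), 10 in S phase (Pcna, Mcm2 to Mcm7, Rrm1, Rrm2 and Tyms) and 22 in G2/M. RNA-seq was performed on the RA of wild-type C57BL/6 mice of either sex, harvested at P21. The 3 sham libraries came from pups that had a sham operation at P7. The 3 volume overload (VO) libraries came from pups given an aortocaval fistula at P7, in which a needle passed through the abdominal aorta into the inferior vena cava. Per the study's methods, pups were operated on under isoflurane, with lidocaine for pain. The labels do not say how many mice gave each library, so the spread between libraries may be partly technical, and the p-values measure that spread alone.

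The cell cycle is driven by kinases that act with cyclins. D cyclins with Cdk4 and cyclin E with Cdk2 carry the cell through G1 and release E2F factors, which switch on the genes of DNA synthesis. In S phase the Mcm helicase opens the DNA and Pcna holds the polymerases on it, and in G2 and mitosis cyclins A and B with Cdk1, the Aurora kinases and the spindle proteins divide the chromosomes. Cardiomyocytes of the mouse leave the cycle mostly in the early weeks after birth, while other cells of the heart can still divide. Transcripts of many G1 and replication genes are also found in cells that are not dividing, whereas most G2/M transcripts are made mainly in dividing cells.

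Every library had between 15963082 and 17237903 fragments on genes, and the share of fragments on mitochondrial genes was 13.8% to 16.3%. All 8 atrial cardiomyocyte markers (Myh6, Tnnt2, Actc1, Ryr2, Nppa, Myl7, Myl4 and Tnni3) were above 0 in each library, as the tissue label requires. Their summed level was 20103 to 26191 FPKM in sham libraries and 9243 to 17301 FPKM in VO libraries. FPKM is the number of fragments per kilobase of gene, set against a size given to each library. Levels of different genes can so be set side by side. This size was not the fragment total: 1 FPKM in 1 kilobase stood for 15.6 fragments in sham 1 and 18.1 in VO 1. Those libraries had 16494342 and 16852482 fragments on genes. The library VO 1 stood apart from the others: its median correlation with the other libraries, across genes on the log2 scale, was 0.926, against 0.940 to 0.963 for the other 5. Results that rest on VO 1 are therefore given with and without it. Values of members without VO 1 come from the fit to all genes with a mean of at least 0.1 FPKM. In these bulk samples, a smaller number of cells of a type and less RNA per cell cannot be told apart.

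The main pattern was a high level of G2/M transcripts in 1 of the 3 VO libraries. All 22 G2/M genes had their highest value in VO 1, at 2.07 to 6.89 times the sham mean (median 3.97). Of all 19053 genes with a mean of at least 0.1 FPKM, 26.2% had their highest value in VO 1. In 18 of the 22 genes, VO 1 was over 2 times the highest of the other 5 libraries, a gap seen in 4.14% of the 19053 genes. The median ratio to the sham mean was 0.949 in VO 2 and 1.19 in VO 3. VO 2 was above every sham library in 4 of the 22 genes (26.0% of all genes) and below every one in 6 (24.8%). VO 3 was above in 11 (28.9% of all genes) and below in 3 (25.8%). The S phase genes showed less of this pattern, with 7 of 10 highest in VO 1 but only Rrm2 over 2 times the next library, and the G1 genes had 4 of 7 and 0. With TPM, which sets the sum of each library equal, 22 G2/M, 9 S phase and 4 G1 genes were highest in VO 1. The FPKM sum of VO 1 was the smallest, 331122 against 351067 to 414851 in the others, so TPM raises every gene in VO 1 relative to them. The share of all genes highest in VO 1 on this scale was not computed.

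Summed over the 22 genes, the G2/M level was 12.8, 13.8 and 12.1 FPKM in sham 1, 2 and 3 and 52.5, 11.7 and 15.8 FPKM in VO 1, 2 and 3. The 10 S phase genes summed to 50.7, 50.5 and 43.0 FPKM in the sham libraries and 59.4, 46.0 and 50.03 FPKM in the VO libraries. The 7 G1 genes summed to 57.7, 61.1 and 57.4 FPKM against 62.2, 57.7 and 55.6 FPKM. Per length, the sums of the G1 and S phase genes were higher than that of the G2/M genes in every library, although Ccne1 and E2f1 in G1 had sham means of 0.323 and 0.414 FPKM, below many G2/M genes. Single G2/M genes had 4 to 194 fragments in each of the 5 libraries other than VO 1 and 46 to 927 in VO 1, so that counting error is large for the lowest of them.

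**Figure D1:**
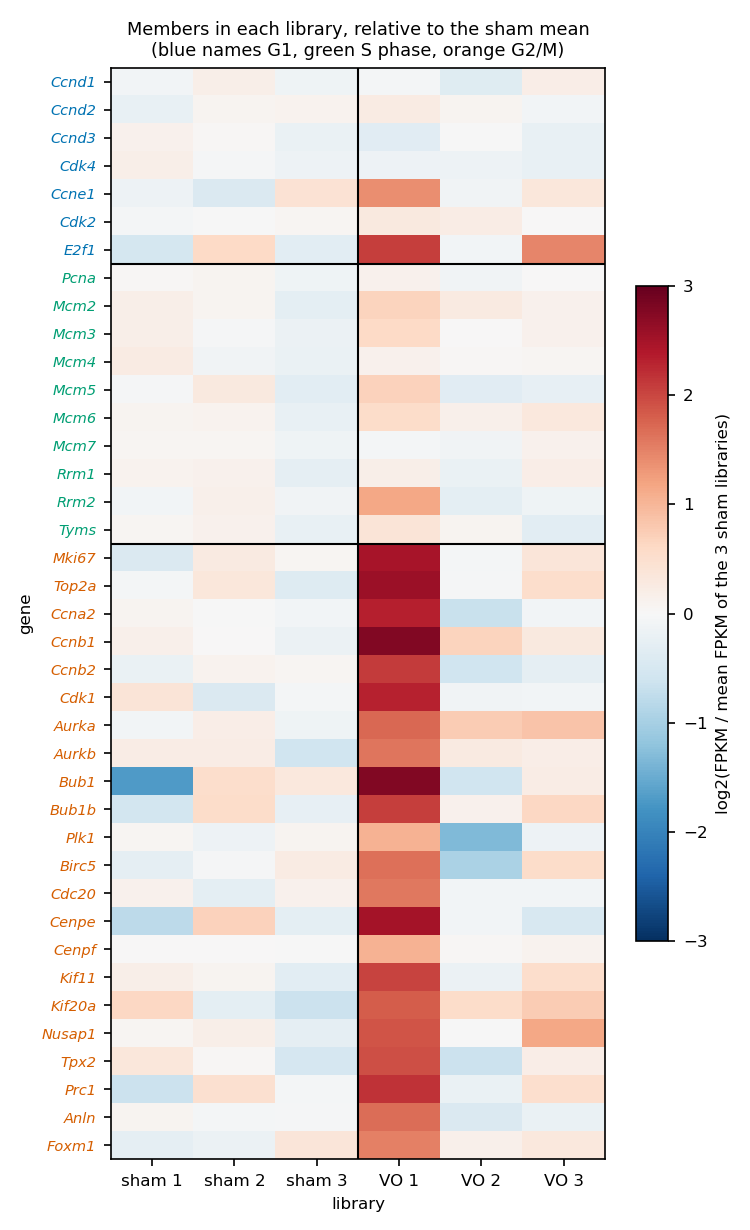
Each of the 39 genes (rows, by phase) in each of the 6 libraries (columns), as log2 of FPKM over the mean FPKM of the 3 sham libraries, red above and blue below. The G2/M rows are red in the VO 1 column, at 2.07 to 6.89 times the sham mean, while VO 2 and VO 3 are paler.

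**Figure D2:**
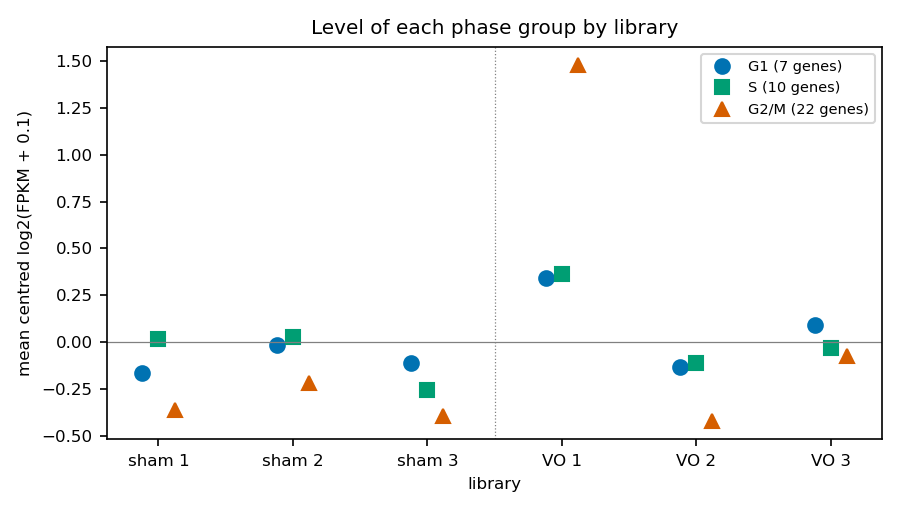
Mean over the genes of each phase of log2(FPKM + 0.1) after its mean over the 6 libraries was removed (vertical axis), by library (horizontal axis), with 1 point per phase and library. The G2/M point stands at 1.48 in VO 1 and between -0.42 and -0.07 in the other 5 libraries, while the S phase and G1 points of VO 1 stand at 0.36 and 0.34.

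The 7 G1 genes all had sham and VO libraries that overlapped. Ccnd2, a D cyclin (chr6:127125162-127152193, minus strand, GRCm38, the build of all gene coordinates here), was the most abundant member of the 39. It measured 20.3, 25.03 and 25.2 FPKM in sham 1, 2 and 3 and 27.7, 24.9 and 22.1 FPKM in VO 1, 2 and 3. VO 1 was the highest library, and the log2 fold change of VO over sham was 0.08 ± 0.14 (standard error; adjusted p = 0.782). Ccnd1, the D cyclin that growth factors induce (chr7:144929931-144939925, minus strand), measured 5.81, 7.01 and 5.69 FPKM in sham and 5.93, 4.83 and 7.14 FPKM in VO libraries. Both its lowest and its highest value were in VO libraries, and its log2 fold change was -0.06 ± 0.17 (adjusted p = 0.887), or 0.08 on the TPM scale.

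Ccnd3, the remaining D cyclin (chr17:47505051-47599691, plus strand), measured 7.69, 7.29 and 6.20 FPKM in sham and 5.60, 6.99 and 6.08 FPKM in VO libraries, with VO 1 lowest. Its log2 fold change was -0.18 ± 0.13 (adjusted p = 0.543). Cdk4, the kinase that the D cyclins activate (chr10:127063534-127067920, plus strand), measured 19.7, 17.1 and 15.6 FPKM in sham and 15.7, 15.8 and 14.9 FPKM in VO libraries. The groups overlapped by 1 sham library, and the log2 fold change was -0.17 ± 0.11 (adjusted p = 0.521). Cdk2, the kinase of cyclins E and A (chr10:128697939-128705031, minus strand), measured 3.66, 3.80 and 3.96 FPKM in sham and 4.65, 4.43 and 3.84 FPKM in VO libraries. Only VO 3 fell within the sham range, and the log2 fold change was 0.17 ± 0.12 (adjusted p = 0.521).

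The other G1 members, Ccne1 and E2f1, were low and, like the G2/M genes, highest in VO 1. Ccne1, cyclin E1, measured 0.290, 0.240 and 0.438 FPKM in sham and 0.849, 0.300 and 0.411 FPKM in VO libraries. E2f1, the transcription factor released at the end of G1, measured 0.285, 0.625 and 0.331 FPKM in sham and 1.73, 0.389 and 1.14 FPKM in VO libraries. E2f1 was above every sham library in VO 1 and VO 3 and within the sham range in VO 2.

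The S phase genes were at 0.788 to 1.24 times their sham mean in VO 2 and VO 3, and at 0.958 to 2.25 times in VO 1. Pcna, the sliding clamp of the replication fork (chr2:132249162-132253314, minus strand), was the most abundant of them. It measured 22.2, 23.0 and 20.0 FPKM in sham 1, 2 and 3 and 23.9, 20.2 and 21.8 FPKM in VO 1, 2 and 3. The groups overlapped over nearly their whole range, and the log2 fold change was 0.01 ± 0.11 (adjusted p = 0.963).

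The 6 Mcm genes encode the ring-shaped helicase, in which each subunit is present once. Their sham means ran from 1.23 FPKM (Mcm2) to 5.27 FPKM (Mcm4). Mcm2 (chr6:88883474-88898780, minus strand) measured 1.39, 1.29 and 0.998 FPKM in sham and 1.94, 1.48 and 1.34 FPKM in VO libraries. VO 3 was within the sham range, and the log2 fold change was 0.34 ± 0.24 (adjusted p = 0.525), or 0.20 ± 0.21 without VO 1. Mcm3 (chr1:20802968-20820312, minus strand) measured 3.36, 2.91 and 2.62 FPKM in sham and 4.47, 2.99 and 3.26 FPKM in VO libraries. Here only VO 1 exceeded the sham range, and the log2 fold change was 0.25 ± 0.18 (adjusted p = 0.546), or 0.08 ± 0.15 without VO 1.

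Mcm6 (chr1:128331590-128359664, minus strand) was the S phase gene whose groups did not overlap. It measured 4.70, 4.75 and 3.82 FPKM in sham and 6.45, 4.94 and 5.49 FPKM in VO libraries, and its means were 4.42 ± 0.524 and 5.63 ± 0.763 FPKM (SD, n = 3 each). The log2 fold change was 0.34 ± 0.15 with an unadjusted p of 0.0516 (adjusted p = 0.414), the smallest p among the members with a mean of at least 1 FPKM. Without VO 1, in the fit to genes with a mean of at least 0.1 FPKM, it was 0.24 ± 0.14 (unadjusted p = 0.154). Mcm4, Mcm5 and Mcm7 had VO 1 at 1.10, 1.61 and 0.958 times the sham mean, and in each the groups overlapped.

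Of the enzymes that make DNA precursors, only Rrm2 stood far apart in VO 1. Rrm2, the small subunit of ribonucleotide reductase, which limits the enzyme in dividing cells, measured 2.27, 2.68 and 2.24 FPKM in sham and 5.39, 1.97 and 2.19 FPKM in VO libraries. VO 2 and VO 3 were below every sham library, so that its log2 fold change of 0.25 ± 0.36 with all libraries became -0.19 ± 0.15 without VO 1. Rrm1, the large subunit, which persists outside S phase, had VO 1 at 1.13 times the sham mean. Tyms, thymidylate synthase, had it at 1.30 times.

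The G2/M genes were near or below 1 FPKM in sham libraries, with sham means of 0.193 FPKM (Bub1) to 1.17 FPKM (Cdc20). Mki67, the Ki-67 antigen used as a marker of dividing cells (chr7:135689784-135716361, minus strand), measured 0.677, 1.10 and 0.946 FPKM in sham 1, 2 and 3 and 5.08, 0.866 and 1.17 FPKM in VO 1, 2 and 3. VO 1 stood at 5.59 times the sham mean, VO 2 within the sham range and VO 3 just above it. The log2 fold change was 0.90 ± 0.62 (adjusted p = 0.519), and 0.16 ± 0.28 without VO 1. Top2a, the topoisomerase that untangles chromosomes before they part (chr11:98992943-99024189, minus strand), measured 0.777, 1.02 and 0.620 FPKM in sham and 4.78, 0.789 and 1.16 FPKM in VO libraries. Again VO 1 was far above the rest, and the log2 fold change was 0.99 ± 0.62 (adjusted p = 0.497), or 0.25 ± 0.30 without VO 1.

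Cdk1 is the kinase that starts mitosis (chr10:69335146-69352938, minus strand). It measured 0.573, 0.329 and 0.423 FPKM in sham and 2.18, 0.410 and 0.419 FPKM in VO libraries. VO 2 and VO 3 lay inside the sham range, and the log2 fold change of 0.67 ± 0.60 (adjusted p = 0.670, in the fit to genes with a mean of at least 0.1 FPKM) turned to -0.05 ± 0.29 without VO 1. Ccnb1, cyclin B1 and partner of Cdk1 (chr13:100778650-100786570, minus strand), measured 0.274, 0.248 and 0.218 FPKM in sham and 1.69, 0.393 and 0.303 FPKM in VO libraries. All VO libraries were above all sham libraries, with VO 2 at 1.59 and VO 3 at 1.23 times the sham mean. Ccnb1 had few fragments, however: 18, 18 and 15 in sham and 129, 27 and 21 in VO libraries. In the same fit its log2 fold change was 1.03 ± 0.58 (adjusted p = 0.545), and 0.36 ± 0.27 without VO 1. The related Ccna2 and Ccnb2, cyclins A2 and B2, had VO 1 at 5.05 and 4.27 times the sham mean, while VO 2 (0.626 and 0.660 times) and VO 3 (0.947 and 0.826 times) were below it.

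The kinases that act beside Cdk1 were less alike. Aurka, Aurora kinase A of the centrosome (chr2:172356190-172370535, minus strand), was named after its values were seen, because its 3 VO libraries all lay above sham. It measured 0.381, 0.458 and 0.364 FPKM in sham and 1.33, 0.679 and 0.721 FPKM in VO libraries. Its log2 fold change was 0.96 ± 0.32 (unadjusted p = 0.0190, adjusted p = 0.499) with all libraries and 0.68 ± 0.23 (unadjusted p = 0.0338) without VO 1. Aurkb, the Aurora kinase of the chromosomal passenger complex, measured 0.589, 0.591 and 0.334 FPKM in sham and 1.53, 0.604 and 0.578 FPKM in VO libraries, with VO 3 inside the sham range. Birc5, survivin, a partner of Aurkb in that complex, had VO 1 at 3.14, VO 2 at 0.516 and VO 3 at 1.46 times the sham mean. Plk1, a kinase of the centrosome and kinetochore, measured 0.585, 0.501 and 0.586 FPKM in sham and 1.15, 0.223 and 0.498 FPKM in VO libraries, so that VO 2 was the lowest library and VO 1 the highest.

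Among the spindle checkpoint genes, Bub1b, which delays anaphase (chr2:118598211-118641591, plus strand), measured 0.421, 0.909 and 0.517 FPKM in sham and 2.58, 0.674 and 0.953 FPKM in VO libraries. Its log2 fold change was 0.92 ± 0.54 (adjusted p = 0.477), and 0.39 ± 0.37 without VO 1. Bub1, its paralog and partner, had the highest ratio of VO 1 to the sham mean of the 22, at 6.89, but on few fragments: 4, 21 and 17 in sham and 105, 9 and 16 in VO libraries. Cdc20, which activates the anaphase-promoting complex, had VO 1 at 2.99 times the sham mean. The kinetochore motor Cenpe had it at 5.68 times. Cenpf, another kinetochore protein, was named after its values were seen because its sham libraries were nearly equal. It measured 0.458, 0.459 and 0.458 FPKM in sham and 0.950, 0.469 and 0.492 FPKM in VO libraries, so that the groups did not overlap although VO 2 was only 1.02 times the sham mean.

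Nusap1, which binds and bundles spindle microtubules (chr2:119618298-119651244, plus strand), measured 0.728, 0.786 and 0.575 FPKM in sham and 2.59, 0.695 and 1.56 FPKM in VO libraries. It had the highest VO 3 ratio of the 22 genes, 2.24 times the sham mean, while VO 2 was within the sham range. The log2 fold change was 0.95 ± 0.47 (adjusted p = 0.432), and 0.54 ± 0.38 without VO 1. Kif20a, a kinesin of the central spindle and named after its values were seen, measured 0.745, 0.397 and 0.307 FPKM in sham and 1.70, 0.711 and 0.817 FPKM in VO libraries. Its log2 fold change was 0.99 ± 0.42 (unadjusted p = 0.0489, adjusted p = 0.506), and 0.64 ± 0.38 without VO 1 (unadjusted p = 0.160). The other spindle genes had VO 1 at 4.09 times (Kif11, a motor that pushes the poles apart), 3.84 times (Tpx2, which activates Aurka) and 4.52 times (Prc1, which cross-links the midzone) the sham mean. Anln, anillin of the cleavage furrow, had it at 3.21 times, and Foxm1, a transcription factor of G2/M genes, at 2.86 times.

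**Figure D3:**
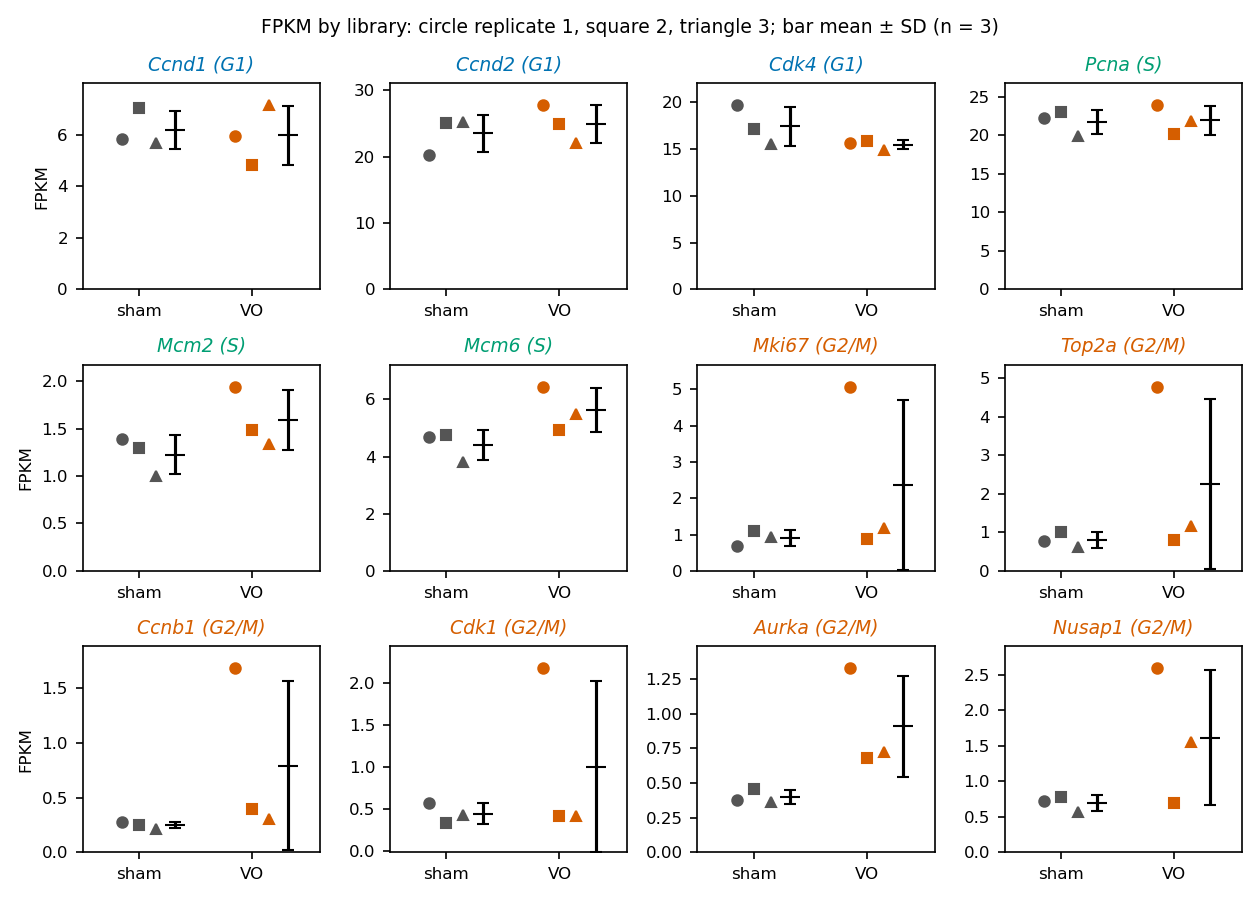
FPKM (vertical axes, each from 0 or just below it) of 12 genes in the 3 sham (grey) and 3 VO (orange) libraries, with a circle for replicate 1, a square for 2 and a triangle for 3, and the mean ± SD (n = 3) beside each group. In the Mki67, Top2a, Ccnb1 and Cdk1 panels the VO circle stands at 1.69 to 5.08 FPKM with the other 5 libraries at 1.17 FPKM or less, while the Ccnd1, Ccnd2 and Pcna groups overlap.

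The regions upstream of the genes were read for motifs, because the G2/M members were high together in VO 1 and the other phases less so. A promoter of 300 bases (250 before to 50 after the start, RefSeq, GRCm38.p6) was matched for 31 of the 39 genes, 34 promoters in all. Letters were searched on both strands: TTTGAA or TTCGAA for the cell cycle genes homology region (CHR), which is known to bind complexes that repress G2/M genes in resting cells, CCAAT for NF-Y, and TTTGGCGC, TTTCCCGC, TTTCGCGC or TTTGCCGC for E2F. The CHR letters were in 14 of 18 G2/M promoters (77.8%), 2 of 10 S phase promoters (20.0%) and 0 of 6 G1 promoters, against 19.2% of all 32851 promoters. The NF-Y letters were in 15 of 18, 9 of 10 and 2 of 6, against 37.4% of all. The E2F letters were in 1 of 18, 4 of 10 and 1 of 6, against 2.26% of all. NF-Y and CHR letters stood together in 13 of the 18 G2/M promoters (72.2%), against 7.52% of all. These are matches of letters and not sites shown to be bound. Since CHR is known in G2/M genes, a high share there was likely from the start. Whether the letters bear on the levels in VO 1 was not tested. The 18 G2/M promoters belong to 17 genes, and those of Prc1 overlap.

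The promoters below are examples of each kind of match, picked for the motifs they hold and because no annotated exon lies in the part shown. That part is the 160 bases from 200 to 41 before the start, 5′ to 3′ on the gene's strand, with matched letters in capitals. It leaves out much of the matched sequence: in these 160 bases the CHR letters were in 5 of 18 G2/M, 2 of 10 S phase and 0 of 6 G1 promoters, the NF-Y letters in 12, 9 and 2, and the E2F letters in 1, 3 and 1. The G2/M promoters come first (Cdk1, chr10:69352953-69353112, Mki67, chr7:135716420-135716579, and Top2a, chr11:99024230-99024389, all minus strand), and their capitals are CHR and NF-Y letters, beside 1 E2F match in Cdk1.
Cdk1: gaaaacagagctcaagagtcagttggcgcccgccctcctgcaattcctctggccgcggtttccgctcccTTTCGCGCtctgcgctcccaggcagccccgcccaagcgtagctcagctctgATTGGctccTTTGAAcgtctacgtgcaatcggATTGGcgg
Mki67: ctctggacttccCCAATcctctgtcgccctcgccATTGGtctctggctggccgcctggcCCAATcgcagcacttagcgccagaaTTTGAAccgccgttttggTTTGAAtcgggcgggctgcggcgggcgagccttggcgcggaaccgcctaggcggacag
Top2a: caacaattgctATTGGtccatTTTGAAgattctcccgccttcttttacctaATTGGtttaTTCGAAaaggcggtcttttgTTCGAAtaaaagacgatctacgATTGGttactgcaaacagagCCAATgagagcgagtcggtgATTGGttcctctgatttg
In Cdk1 the CHR letters lie between the NF-Y matches, and Mki67 and Top2a hold 2 and 3 CHR matches. The S phase promoters follow (Mcm6, chr1:128359746-128359905, minus strand, and Mcm5, chr8:75109309-75109468, plus strand). In both, the long run of capitals is an E2F match on each strand that overlap, and the short run is NF-Y.
Mcm6: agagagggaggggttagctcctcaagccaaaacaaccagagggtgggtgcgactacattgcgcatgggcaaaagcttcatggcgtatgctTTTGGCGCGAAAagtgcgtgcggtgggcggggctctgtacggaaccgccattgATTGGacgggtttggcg
Mcm5: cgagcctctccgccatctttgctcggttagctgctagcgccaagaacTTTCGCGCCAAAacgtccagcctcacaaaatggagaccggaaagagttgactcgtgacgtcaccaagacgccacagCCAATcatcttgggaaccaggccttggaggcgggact
Cdk4 (chr10:127063335-127063494, plus strand) is shown as a G1 gene with no match in its window.
Cdk4: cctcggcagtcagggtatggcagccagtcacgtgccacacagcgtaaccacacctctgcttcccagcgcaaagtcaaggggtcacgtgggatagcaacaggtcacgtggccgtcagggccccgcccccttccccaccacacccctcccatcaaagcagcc

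No member passed the adjusted threshold of 0.05 between VO and sham. Genes with a mean of at least 1 FPKM were fitted first, with limma. Of the 39 members, 23 entered that fit (5 of 7 G1, 10 of 10 S phase and 8 of 22 G2/M), and 7 of the 23 entered only through their level in VO 1. In this fit, 0 members had an unadjusted p under 0.05 in either direction, beside 3.89% (higher) and 8.08% (lower) of all 12627 genes. The adjusted threshold was passed by 0 members and by 0.00792% of all genes. With voom weights on the fragment counts, 0 members passed either threshold. On the TPM scale, which moved the median log2 fold change of all genes from -0.01 to 0.13, the numbers of higher and lower genes changed from 491 and 1020 to 1085 and 486, and 1 member was higher. In the fit to all 19053 genes with a mean of at least 0.1 FPKM, which held all 39 members, 2 (Aurka and Kif20a) were higher at an unadjusted p under 0.05 and 0 lower. There 3.73% of all genes were higher and 6.11% lower, and 0 members passed the adjusted threshold, which 0.0157% of all genes did. With 2 VO libraries, without VO 1, Aurka was the 1 of 39 members with an unadjusted p under 0.05 (adjusted p = 0.728), beside 2.62% of all genes higher in VO. An exact two-sided permutation test of 3 against 3 libraries cannot give a p below 0.1.

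The VO libraries lay wholly above the sham libraries in 4 of the 39 members (Mcm6, Ccnb1, Aurka and Cenpf), where 8.04% of all 19053 genes did, and wholly below in 0, where 9.75% of all genes did. The median log2 fold change of the 39 members was 0.41, that of the G1 genes 0.08, of the S phase genes 0.08 and of the G2/M genes 0.65, beside 0.02 for all genes. Without VO 1 these medians were 0.02, 0.00, 0.02 and 0.11, beside 0.01 for all genes, with 22 members above 0 and 17 below. Over the tested members with a mean of at least 1 FPKM, the medians were -0.06 for G1, 0.08 for S phase and 0.83 for G2/M, and the last of these rests on genes that mostly passed through VO 1.

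**Figure D4:**
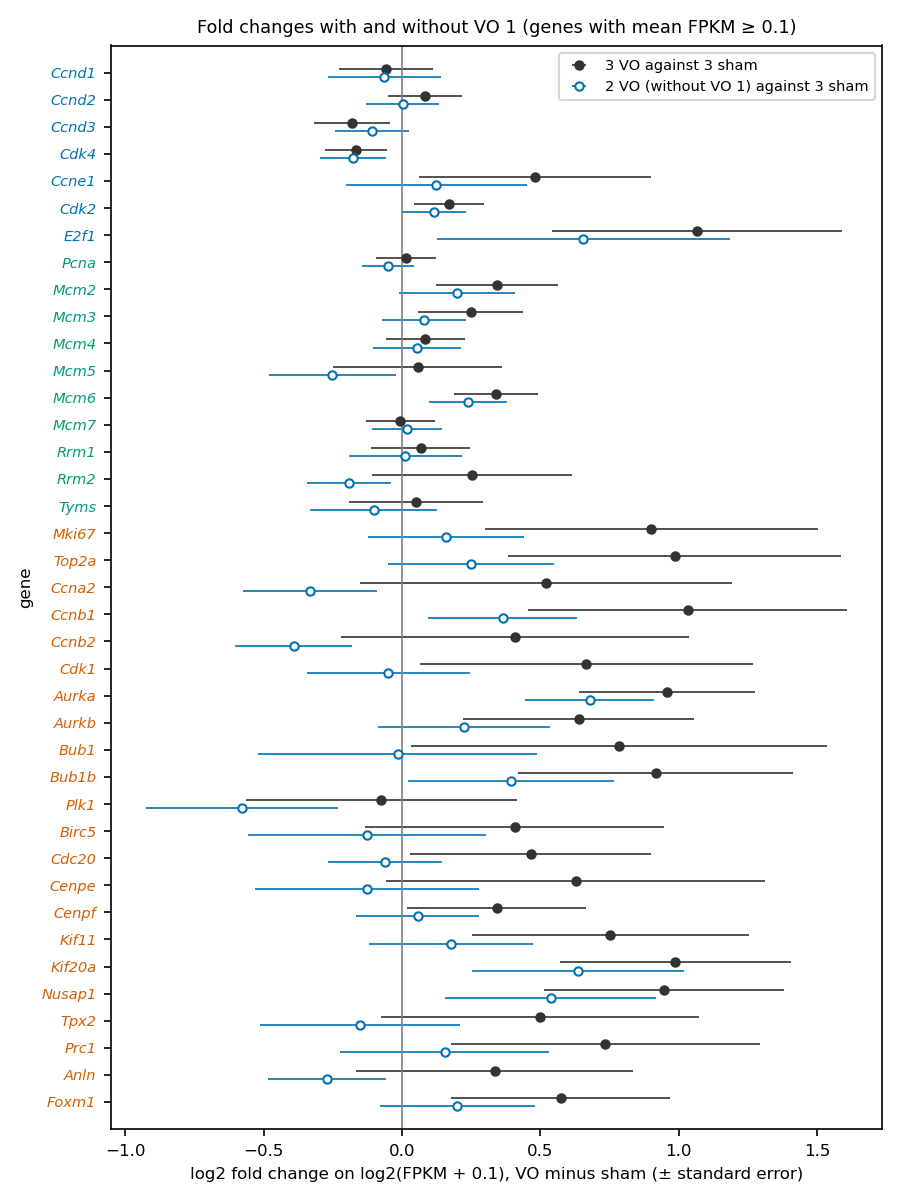
The log2 fold change of VO over sham (horizontal axis, bars ± standard error, on log2(FPKM + 0.1)) of the 39 genes (rows, by phase), with all 6 libraries (filled) and without VO 1 (open). The G2/M medians are 0.65 with all libraries and 0.11 without VO 1, and those of Aurka, a gene named after its values were seen, are 0.96 and 0.68.

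Other genes of the pathway were also read for their level in VO 1. In a list of 41 further mitosis and cytokinesis genes, 38 were highest in VO 1 and 30 were over 2 times the next library there. The same counts were 21 and 1 of 44 replication and DNA precursor genes, 15 and 6 of 27 other cyclins, kinases and G1/S regulators, and 3 and 0 of 12 cell cycle inhibitors. At an unadjusted p under 0.05 in the fit to genes with a mean of at least 1 FPKM, 0 were higher and 1 lower of 8 tested mitosis genes, 0 and 1 of 27 replication genes, 2 and 0 of 19 regulators, and 0 and 1 of 9 inhibitors. In the same fit 3.89% of all 12627 genes were higher and 8.08% lower, so such small counts do not set the lists apart. The adjusted p-values of the 5 list genes with a call were 0.391 to 0.411. Over 21 alternative settings, higher mitosis genes numbered 0 to 3 and were 0 in 18 settings, and higher replication genes numbered 0 to 2 and were 0 in 14. Lower mitosis genes numbered 0 in 10 settings and 1 in the rest, and lower inhibitors numbered 0 to 2. On the TPM scale the inhibitors were 2 higher and 0 lower. The higher regulators numbered 0 to 3 and were 0 in 5 settings, while lower replication genes numbered 1 in all 21.

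Each of those 5 genes had groups that did not overlap. They were picked by a small p in these same libraries, which makes such a gap likely and no separate support. Of all 19053 genes with a mean of at least 0.1 FPKM, 8.04% lay wholly above sham in VO and 9.75% wholly below. In the fit at 1 FPKM, 2 of the 5 genes, Cdk6 and Pttg1, lost the unadjusted call without VO 1. In the fit at 0.1 FPKM without VO 1, 0 regulators were higher and 0 inhibitors lower, so that Myc and Cdkn2d had no call there. Cdk6, the other kinase of the D cyclins, measured 2.25, 2.85 and 2.75 FPKM in sham and 4.97, 3.64 and 2.99 FPKM in VO libraries (log2 fold change 0.52 ± 0.20). Without VO 1, in the fit to genes with a mean of at least 1 FPKM, it was 0.33 (unadjusted p = 0.1001). Myc, a transcription factor that drives entry into the cycle, measured 1.51, 1.84 and 1.88 FPKM in sham and 2.27, 2.14 and 3.38 FPKM in VO libraries (0.53 ± 0.21, and 0.61 without VO 1). Cdkn2d, the p19 inhibitor of Cdk4 and Cdk6, measured 12.3, 10.4 and 8.74 FPKM in sham and 7.14, 8.34 and 6.99 FPKM in VO libraries (-0.47 ± 0.15, and -0.44 without VO 1). The remaining genes were lower in VO and lowest in VO 1. Pold2, a subunit of DNA polymerase delta, measured 17.4, 13.3 and 13.5 FPKM in sham and 9.42, 10.9 and 10.9 FPKM in VO libraries (-0.49 ± 0.14, and -0.41 without VO 1). Pttg1, securin, which keeps sister chromatids from parting before anaphase, measured 31.7, 29.6 and 27.5 FPKM in sham and 17.0, 25.2 and 24.8 FPKM in VO libraries (-0.42 ± 0.17). Without VO 1 it was -0.24 (unadjusted p = 0.0652).

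VO 1 also differed in the markers of other cell types. All 10 macrophage and monocyte markers were highest there, and their summed level was 907 FPKM against 251 to 344 FPKM in sham and 288 and 356 FPKM in VO 2 and VO 3. All 8 neutrophil and precursor markers were highest in VO 1, with a sum of 72.5 FPKM against 0.404 to 11.6 FPKM in sham and 4.40 and 1.31 FPKM in the other VO libraries. Of these, Elane was at 0 in all sham libraries and VO 2, and Mpo in sham 1 and 2 and VO 2 and 3. All 5 B cell markers (7.92 FPKM against 2.15 to 3.57 FPKM in the other 5 libraries), 6 of 10 T cell and thymocyte markers (3.82 against 0.670 to 2.59 FPKM, with Ptcra at 0 in all but VO 3) and 5 of 7 fibroblast markers (909 against 654 to 761 FPKM, none at 0) were highest in VO 1 as well.

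The erythroid sum was 8585 FPKM in VO 1 and 6974 FPKM in sham 1, with 696 to 2383 FPKM in the others and Klf1 at 0 in all VO libraries, while the summed G2/M level of sham 1 was 12.8 FPKM, inside the range of the other sham libraries. The endothelial sum was 187 to 199 FPKM in sham and 202 to 210 FPKM in VO libraries. The atrial cardiomyocyte sum was lowest in VO 1, at 9243 FPKM, and 0 of its 8 markers were highest there. The part of these cell types in the G2/M level of VO 1 was not tested. VO 3, whose adipocyte sum was 389 FPKM against 3.50 to 7.72 FPKM in the others and whose Schwann cell sum was 41.7 against 4.89 to 5.88 FPKM, had a summed G2/M level of 15.8 FPKM.

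**Figure D5:**
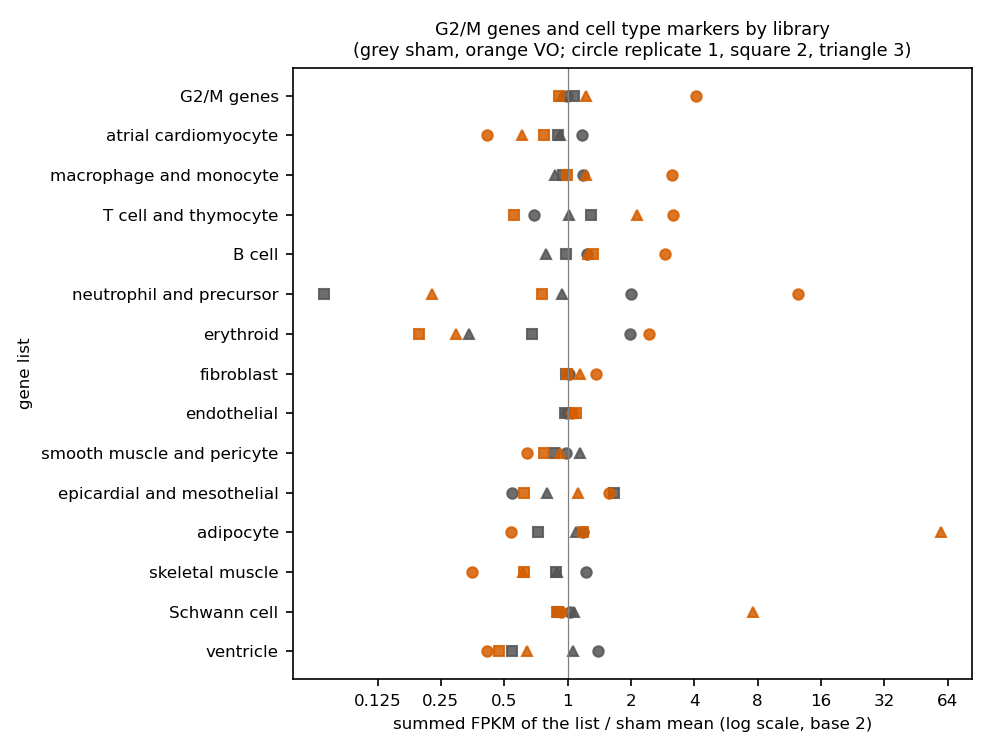
Summed FPKM of the 22 G2/M genes and of 14 lists of cell type markers (rows) in each library, over the mean of the 3 sham libraries (horizontal axis, log scale, base 2), sham in grey and VO in orange, with a circle for replicate 1, a square for 2 and a triangle for 3. The VO 1 circle is the rightmost point for the G2/M, macrophage, neutrophil, B cell, T cell, erythroid and fibroblast rows. It is the leftmost for the atrial cardiomyocyte, smooth muscle and pericyte, adipocyte, skeletal muscle and ventricle rows.

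Some of these values have limits from neighbouring genes and copies, since the sources used here do not say whether strand was kept or used in counting. For 12 of the 39 members a gene of at least 0.1 FPKM overlaps on the opposite strand, namely Cdk4, Cdk2, Ccnd1, Ccnd2, Ccnd3, Ccna2, Cdc20, Kif20a, Nusap1, Prc1, Mcm7 and Top2a, and without strand, reads of the overlap could come from either gene. The pseudogene Ccnb2-ps measured 1.46 to 1.98 FPKM, so that reads shared with Ccnb2 are possible, and VO 1 was its lowest library. Ccnb1-ps measured 0 to 0.142 FPKM, beside 0.218 to 0.274 FPKM of Ccnb1 in sham, so that shared reads are possible there too.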

How the data were processed

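RNA-seq of 3 sham and 3 VO RA libraries at P21 was used, with groups taken from the sample titles. According to the study's methods and the submitters' processing notes, the authors aligned reads with HISAT2 2.0.5, counted them with featureCounts 1.5.0-p3 on GRCm38 and deposited FPKM from gene length and counts. The kit was NEBNext Ultra, and whether counting used strand is not given in the sources used here. One incomplete last line was left out. Every value above 0 was a whole multiple of 1 fragment within a tolerance of 0.01 fragments, which gave the fragment counts, 15963082 to 17237903 per library. That depth sets the counting error, and intervals of it are not given.

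Median-of-ratios factors were 1 for every library, so the deposited FPKM appear to have been scaled between libraries already. They were used in effect as deposited and taken to log2(FPKM + 0.1), a scale that understates fold changes of low genes. The 12627 genes with a mean of at least 1 FPKM entered limma (version 3.58.1, R 4.3.3, moderated by eBayes with a trend). VO was tested against sham, two-sided and without covariates, and p-values were adjusted by Benjamini-Hochberg across every tested gene. A second fit took a mean of at least 0.1 FPKM (19053 genes). The fit at 1 FPKM was tested on simulated data in which all 6 libraries had the spread of the sham libraries. The wider spread of the G2/M genes in VO libraries was not simulated, so that test does not cover it. Alternatives were the pseudocount, filter, quantile normalization, TPM, voom on fragments, a replicate block and leaving out each library. The TPM count of genes highest in VO 1 and the leave-one-out and voom fits at 0.1 FPKM were added after the data were seen. Summed levels and motif shares carry no test.

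The members, phases and lists were chosen with earlier results of these data known. All 39 members are named. Mki67, Top2a, Ccnb1, Cdk1, Ccnd1, Ccnd2, Pcna, Mcm2 and the 3 tested members per phase with the smallest p have full statistics, and of each list up to 3 genes with an unadjusted p under 0.05. Figures were drawn with matplotlib 3.10.9.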

Additional observations from a re-analysis of the deposited data

How the results depend on the processing

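Of 604 values under alternative settings, 57 moved, 12 reversed and 535 did neither. Among the 535 are 28 from deposited FPKM, which could not differ because the scaling factors were 1, and 10 medians near 0 (G1 and S phase) that changed sign by less than the spread between libraries. No member passed the adjusted threshold under any setting, and none was lower in VO at an unadjusted p under 0.05. The number of members higher at an unadjusted p under 0.05 was 0 with a mean of at least 1 FPKM, 2 with a mean of at least 0.1 FPKM, 1 with no filter, 1 with TPM and 2 with voom at 0.1 FPKM. Of all genes, in the same order, 491 of 12627, 710 of 19053, 840 of 26706, 1085 of 12627 and 797 of 19053 were higher. When 1 library was left out, the number of higher members was 0 to 4, and 0 to 6 at 0.1 FPKM. The highest counts, 4 of 23 and 6 of 39, were both without VO 2, where 6.21% and 5.73% of all genes were higher, against 2.23% to 3.94% in the other such fits. Of the 4, 3 were G2/M genes. The filter used all 6 libraries, and 7 of the 23 members passed it only through VO 1, so 4 of 23 is not a fair share to set beside 6.21%. Without VO 1 the number of higher members was 0, and 1 at 0.1 FPKM. The medians over members ranged, with 1 library left out, from -0.14 to 0.08 (G1), -0.03 to 0.21 (S phase), 0.17 to 1.24 (G2/M) and 0.01 to 0.36 (all members), and at 0.1 FPKM from -0.02 to 0.17, -0.03 to 0.21, 0.11 to 1.05 and 0.02 to 0.75, the G2/M median being lowest without VO 1. The G1 median at 0.1 FPKM was 0.131 without sham 2, 0.138 without sham 3 and 0.167 without VO 3. Reversed values were those of Cdk1 (-0.050 without VO 1 at 0.1 FPKM), Ccnd1 (0.079 with TPM, 0.035 without sham 2, 0.082 without VO 2, lowest -0.19), Ccnd2 (-0.020 without sham 1, highest 0.17) and Pcna (-0.046 without sham 3, -0.049 without VO 1, highest 0.073). The cause was not tested. In the fit with a replicate block the G2/M median was 0.83 and 0 members passed an unadjusted p of 0.05. The block changed no call of a member, but the lower mitosis gene Pttg1 lost its unadjusted call under it. Same-numbered sham and VO libraries correlated at -0.11, 0.01 and -0.03 after group means were removed, so the numbers were not taken as pairs. At these depths, G2/M genes with as few as 4 fragments in a library cannot show small differences.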
